A study of Mus musculus with 4 samples.

Results

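The 37 genes of the mouse mitochondrial genome were followed in aged and young mammary fat pad (MFP). They are the genes whose symbol starts with mt- in the deposited table, 37 of 55487 genes, and comprise 13 protein-coding genes, 2 rRNA genes and 22 tRNA genes. The members were chosen by name and not by a measured value, and the comparison asks how their RNA differs between the ages. Total RNA came from whole MFP of female mice, labelled c57bl/6j and with no treatment named, at 14 months (aged, 2 samples) and 8 weeks (young, 2 samples). The methods of the study name C57BL/6NCrl for the mice that were injected with tumour cells in other experiments. The tissue was lysed whole without sorting cells, and a change in the number of cells of a type cannot be told apart from a change in RNA per cell. The replicates are called biological in the titles, and the labels do not say whether each is 1 animal. The p-values therefore rest on the spread between these 4 samples, and those of single genes also draw on the spread of other genes.

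The mitochondrial genome is a small circle of DNA present in many copies per cell. Both of its strands are transcribed into long precursors, and the tRNAs that lie between the other genes are cut out to free the mRNAs and rRNAs. The mRNAs encode core subunits of the respiratory chain complexes I, III and IV and of the ATP synthase (complex V), while all the proteins that copy, transcribe, process and translate mitochondrial nucleic acid come from nuclear genes. Of the 37 members, 28 are annotated on the plus strand and 9 on the minus strand of the GRCm38 sequence. mt-Nd6, a complex I subunit, is the only mRNA on the minus strand. In the annotation neighbouring genes touch or overlap. mt-Atp8 and mt-Atp6 share 43 bases, mt-Nd4l and mt-Nd4 share 7, and mt-Nd5 and mt-Nd6 share 14 on opposite strands. The libraries keep the strand of the RNA, but the strand setting of the counting is not given in the sources used here, so reads from RNA of the opposite strand cannot be told apart from reads of mt-Nd6 or of another minus-strand gene.

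Counts summed to 83936413 and 98402403 per aged library, against 77661766 and 68803304 per young library. At these depths 3 counts equal 0.0337 to 0.0406 CPM, the counts scaled to the TMM-adjusted library size. Intervals and floors given here cover counting error only. Of 22485 genes that passed the filter on low counts, edgeR's quasi-likelihood test called 0 at a Benjamini-Hochberg adjusted p of 0.05 (0% called), with 2371 genes (10.5%) under an unadjusted p of 0.05 and 865 genes (3.86%) called by DESeq2. The median log2 fold change, aged over young, was -0.04 over all genes tested. Adipocyte markers were present in every library, at a summed 7296 to 11257 CPM. Skeletal muscle markers were also present, at 42805 and 68505 CPM in aged, against 11237 and 15758 CPM in young libraries. Young replicate 1 stood apart for lymphocyte markers, with 1166 CPM against 34.6 to 141 CPM in the other libraries. Aged replicate 1 stood apart for a row annotated as nuclear rRNA, CT010467.1, with 8994 CPM against 220.4 to 645.6 CPM.

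Several members have near-identical copies in the nuclear genome, which bears on the values below. Fragments of mitochondrial DNA have been inserted into nuclear chromosomes during evolution, and a read that fits both places may be discarded or assigned to either. Each mitochondrial gene was therefore cut into overlapping windows of 50 bases, and the share of windows with an exact match in an annotated nuclear gene was counted. Nuclear sequence outside annotated genes was not searched. In GENCODE M21 (GRCm38), a block of 7 unprocessed pseudogenes at chr1:24611535-24616197 on the minus strand holds copies of the stretch from mt-Co1 to mt-Nd4. The pseudogene copies of mt-Co2, mt-Atp6, mt-Co3, mt-Nd3, mt-Nd4l and mt-Nd4 differ from the mitochondrial genes at 0 aligned bases. The copy of mt-Co1, Gm29216, differs at 1 of 483 aligned bases, the substitution A1066T, counted from 1 at the 5′ end of mt-Co1. A full-length copy of mt-Co1 on chromosome 2, Gm13340, is 97.6% identical, with 37 mismatches.

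The following stretches, 5′ to 3′ in the sense of the gene, show how far a read could separate a gene from its copy. They come from the GENCODE M21 transcripts, and capitals mark a base that differs between gene and copy. The first pair is bases 1 to 60 of mt-Co2 (chrM:7013-7696, plus strand) and of its copy Gm28661, which are the same. The second pair is bases 1063 to 1122 of mt-Co1 (chrM:5328-6872, plus strand) and the matching bases of Gm29216, with A1066T as the single difference. The third pair is bases 24 to 83 of mt-Co1 and of Gm13340, with the differences C54A and A60G.
mt-Co2: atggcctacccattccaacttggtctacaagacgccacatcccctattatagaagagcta
Gm28661: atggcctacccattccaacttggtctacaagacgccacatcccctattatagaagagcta
mt-Co1: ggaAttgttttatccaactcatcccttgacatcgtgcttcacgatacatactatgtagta
Gm29216: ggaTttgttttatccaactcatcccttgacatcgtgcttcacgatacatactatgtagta
mt-Co1: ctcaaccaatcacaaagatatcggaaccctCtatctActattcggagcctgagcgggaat
Gm13340: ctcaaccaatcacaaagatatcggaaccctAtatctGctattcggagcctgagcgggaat

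The level of a mitochondrial mRNA was far lower where nearly the whole gene has a nuclear copy. For mt-Co2, mt-Atp6, mt-Co3, mt-Nd3 and mt-Nd4l, 98 to 100% of windows were found in nuclear genes, and their levels per length were 7.32 to 40.8 CPM per 1000 bases, as means of the 4 libraries. For mt-Nd1, mt-Nd2, mt-Nd5, mt-Nd6 and mt-Cytb, 0 to 8.19% of windows were found, and the levels per length were 1432 to 4880 CPM per 1000 bases. mt-Co1 (51.1% of windows) and mt-Nd4 (62.2%) stood at 6944 and 1443 CPM per 1000 bases. mt-Atp8, with 0% of windows in annotated genes, stood at 8.93 CPM per 1000 bases. It lies between mt-Co2 and mt-Atp6, and the copies of these neighbours flank an unannotated stretch of chromosome 1 that was not read here. The part of discarded or reassigned reads in these levels was not tested, since the handling of reads that map to several places is not given in the sources used here.

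**Figure D1:**
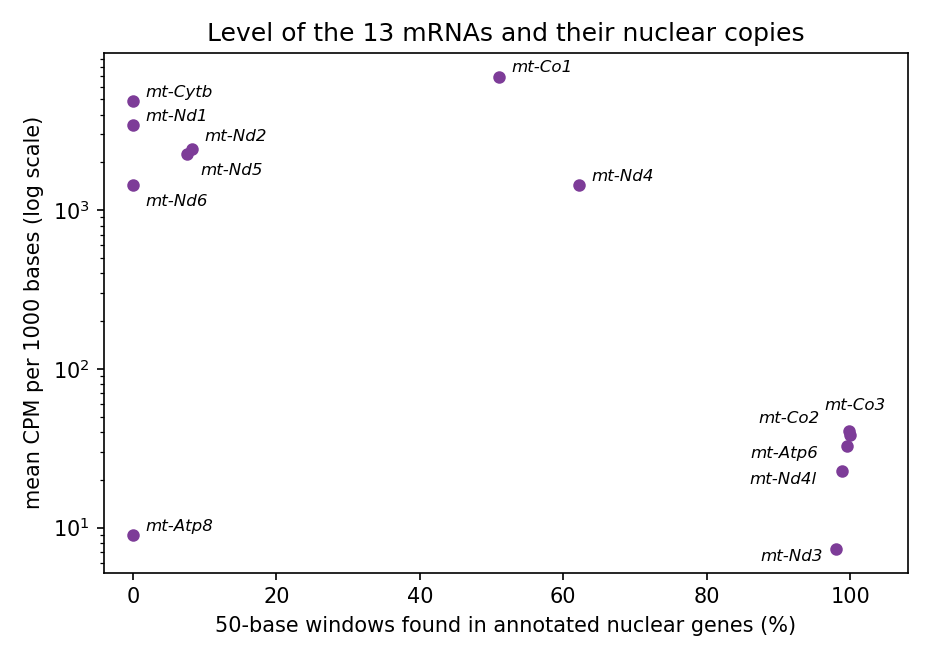
Mean level of each of the 13 mitochondrial mRNAs over the 4 libraries, in CPM per 1000 bases on a log scale, against the share of its 50-base windows found in annotated nuclear genes. The 5 genes with 98 to 100% of windows in nuclear genes lie at 7.32 to 40.8 CPM per 1000 bases, as does mt-Atp8 at 8.93, while the other 7 lie at 1432 to 6944.

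The pseudogenes of the chromosome 1 block were themselves counted, at a summed 97.1 and 111 CPM in aged, against 76.8 and 61.0 CPM in young libraries. Gm10925, the copy of mt-Atp6, took 11975 counts over the 4 libraries, or 61.8% of the counts on gene and copy together. Its levels were 41.9 and 47.1 CPM in aged, against 31.0 and 24.6 CPM in young libraries (log2 fold change 0.68, SE 0.19, edgeR adjusted p = 0.43). Both aged libraries were above both young ones for it, as for mt-Atp6 itself. Gm28661, the copy of mt-Co2, took 7807 counts (47.5% of gene and copy), with 24.2 and 30.1 CPM in aged, against 22.5 and 17.8 CPM in young libraries. Gm28439, the copy of part of mt-Nd4, took 4508 counts, 0.678% of gene and copy, with 16.6 and 17.7 CPM in aged, against 11.0 and 9.05 CPM in young libraries. Over the 7 pseudogenes the log2 fold changes ran from 0.08 to 0.79 with a median of 0.47, and 0 passed the test (lowest edgeR adjusted p = 0.416).

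The share of all members together overlapped between the ages, and the mRNAs took a larger share in both aged libraries. The 37 genes held 5.80% and 5.76% of all counts in aged, against 5.85% and 4.73% in young libraries, which overlap (exact two-sided permutation p = 1). The 13 mRNAs held 3.12% and 3.30% in aged, against 2.85% and 2.22% in young libraries. The mean share of the mRNAs was 3.21% ± 0.13 (SD, n = 2) in aged and 2.54% ± 0.45 (SD, n = 2) in young MFP, a difference of 0.671 percentage points that was 0.354 without young replicate 2 and 0.987 without young replicate 1 (exact two-sided permutation p = 0.333, the smallest that 2 against 2 samples can give). Both aged libraries were above both young ones. The 2 rRNAs held 2.68% and 2.46% in aged, against 3.00% and 2.51% in young libraries, which overlap (exact two-sided permutation p = 0.667). The 22 tRNAs held 0.00128% and 0.00123% in aged, against 0.00172% and 0.000933% in young libraries (exact two-sided permutation p = 1). The 95% Wilson intervals of these shares span at most 0.01 percentage points for the 37 genes, 0.0074 for the mRNAs, 0.0076 for the rRNAs and 0.00018 for the tRNAs. The gaps between samples of the same age are wider than these intervals, except for the tRNAs of the aged libraries.

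**Figure D2:**
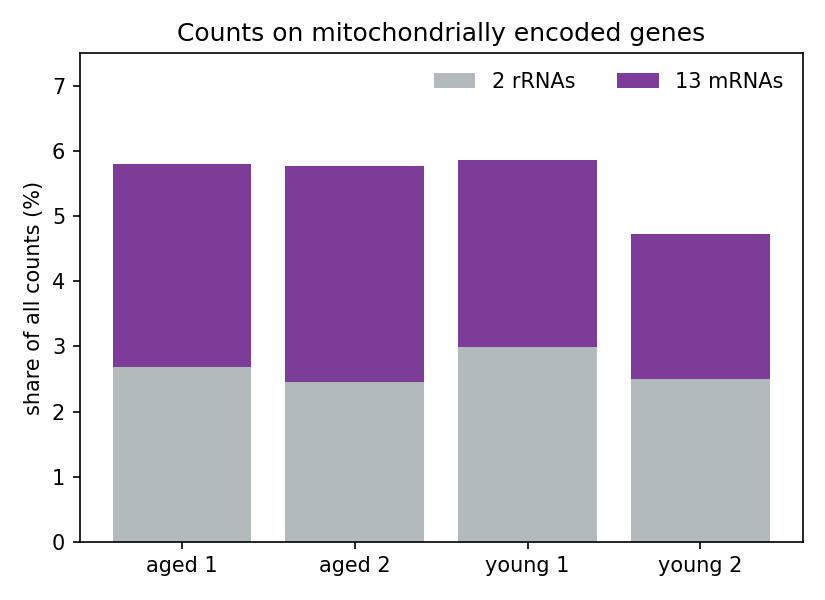
Share of all counts, in percent, on the 2 mitochondrial rRNAs (grey) and the 13 mitochondrial mRNAs (purple) in each library, stacked from 0. The mRNA part is 3.12% and 3.30% in aged, against 2.85% and 2.22% in young libraries, and the rRNA part overlaps between the ages.

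All 13 mRNAs had a higher mean in aged than in young MFP on the TMM scale (47% of all genes tested), with mt-Nd6 at -0.12 when total counts were the only scaling, and 0 of 13 passed edgeR's quasi-likelihood test (adjusted p from 0.436 to 0.918). Their median log2 fold change was 0.54, against -0.04 over all genes tested, and ran from 0.06 to 0.92. For 11 of the 13, both aged libraries were above both young libraries, which was so for 23.3% of all genes tested. The mRNAs are cut from shared precursors and are not independent, so these counts are not 13 separate observations. mt-Co2 and mt-Nd6 overlapped between the ages. Such counts with a library left out are not given, since fewer libraries make it easier for the ages to be apart. The median was 0.78 without young replicate 1 and 0.39 without young replicate 2. DESeq2 also called 0 of the 13, with the lowest adjusted p for mt-Nd2 (0.0755).

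Complex I takes electrons from NADH, and 7 of its subunits are mitochondrially encoded. mt-Nd2 (chrM:3914-4951, plus strand) was measured at 3008 and 3408 CPM in aged, against 2113 and 1569 CPM in young libraries (log2 fold change 0.80, SE 0.31, edgeR adjusted p = 0.488). mt-Nd1 (chrM:2751-3707, plus strand) was measured at 3621 and 4327 CPM in aged, against 2844 and 2310 CPM in young libraries (log2 fold change 0.63, SE 0.32). For both genes the lower aged library was above the higher young one. mt-Nd4 stood at 2326 and 2629 CPM in aged, against 1774 and 1225 CPM in young libraries (0.72, SE 0.31). mt-Nd5 stood at 4735 and 5107 CPM in aged, against 3773 and 2796 CPM in young libraries (0.58, SE 0.35). These 2 subunits likewise did not overlap between the ages. The short subunits mt-Nd3 and mt-Nd4l, which lie in the copied stretch, had means of 3.01 and 8.00 CPM in aged and 2.09 and 5.49 CPM in young MFP, with log2 fold changes of 0.52 and 0.54.

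mt-Nd6 (chrM:13552-14070, minus strand) differed from the other 6 complex I subunits in its pattern. It was measured at 742 and 777 CPM in aged, against 829 and 624 CPM in young libraries, so the aged values lie between the young ones. Its log2 fold change was 0.06 (SE 0.23, edgeR adjusted p = 0.918) with TMM and -0.12 with total counts as the only scaling, where the median of all genes tested was -0.22. It was also at -0.12 when young replicate 2 was left out.

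Complexes III and IV pass electrons on to oxygen. mt-Cytb, the cytochrome b of complex III, stood at 6186 and 6935 CPM in aged, against 5247 and 3963 CPM in young libraries (log2 fold change 0.51, SE 0.38, edgeR adjusted p = 0.604). mt-Co1, the catalytic subunit of complex IV, was the mRNA with the highest level per length, and stood at 11246 and 13171 CPM in aged, against 10358 and 8141 CPM in young libraries (log2 fold change 0.40, SE 0.47). Both aged libraries were above both young ones for these genes, with 10358 CPM in young replicate 1 nearest to 11246 CPM in aged replicate 1 for mt-Co1. mt-Co3 stood at 33.7 and 41.6 CPM in aged, against 29.7 and 22.9 CPM in young libraries (0.52, SE 0.22). mt-Co2, with every window found in nuclear genes, stood at 25.7 and 31.1 CPM in aged, against 27.0 and 20.7 CPM in young libraries (0.25, SE 0.22). mt-Co2 is the plus-strand mRNA whose values overlap. With the counts of the nuclear copies added to their mitochondrial genes, a choice made after seeing the data, 12 of the 13 mRNAs were higher in both aged libraries, which leaves mt-Nd6 as the one that overlaps.

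Complex V makes ATP, and both of its mitochondrially encoded subunits were among the mRNAs with the smallest p-values in edgeR's test. mt-Atp6 was measured at 25.6 and 29.5 CPM in aged, against 19.1 and 15.2 CPM in young libraries (log2 fold change 0.69, SE 0.20, edgeR unadjusted p = 0.0269, adjusted p = 0.436). mt-Atp8 was measured at 2.30 and 2.47 CPM in aged, against 1.34 and 1.18 CPM in young libraries (log2 fold change 0.92, SE 0.30, edgeR unadjusted p = 0.035, adjusted p = 0.458). These were the 2 of 13 mRNAs under an unadjusted p of 0.05, against 7.24% of all genes tested that were under it and higher in aged MFP. The 2 genes share 43 bases and are not independent. In DESeq2 the adjusted p was 0.134 for mt-Atp8 and 0.145 for mt-Atp6, against 0.0755 for mt-Nd2. Both lie in the stretch of low counts, with 87 to 220 counts per library for mt-Atp8.

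**Figure D3:**
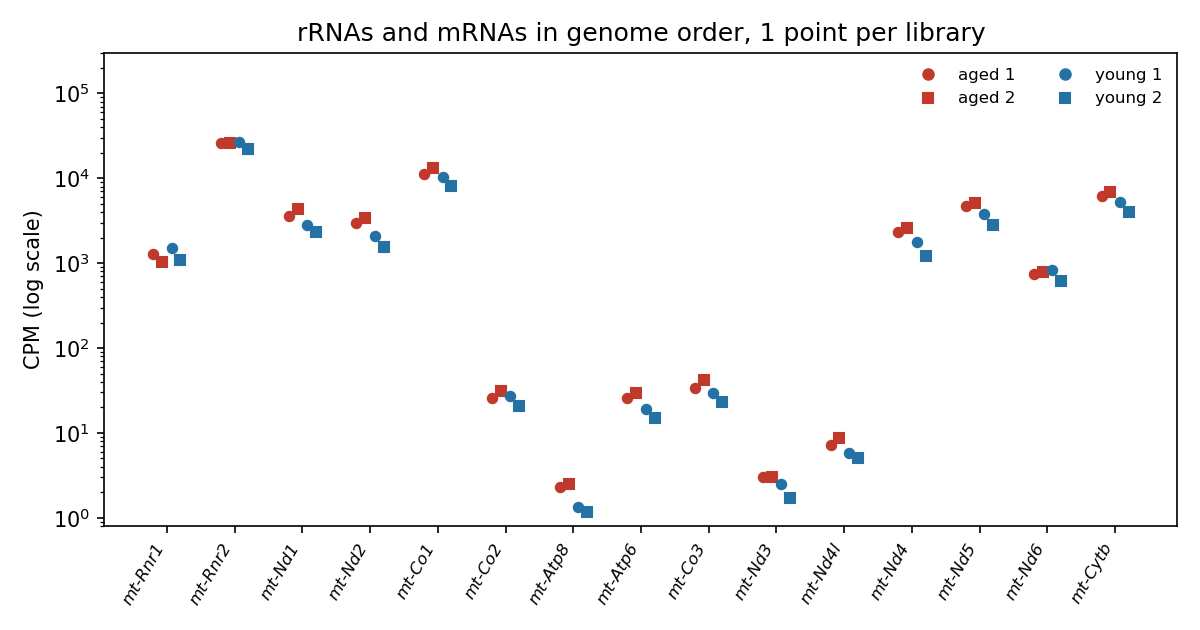
CPM (log scale) of the 2 mitochondrial rRNAs and 13 mRNAs in genome order, with 1 point per library, aged in red and young in blue. The aged points lie above the young points for 11 mRNAs, overlap for mt-Co2, mt-Nd6 and both rRNAs, and drop to 1.18 to 41.6 CPM in the stretch from mt-Co2 to mt-Nd4l.

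The ratio of 2 members within a library does not depend on scaling, and here it separated mt-Nd6 from the plus-strand mRNAs. The 12 plus-strand mRNAs together had 42.1 and 45.9 counts per count of mt-Nd6 in aged, against 31.6 and 32.1 in young libraries, a 1.38-fold higher mean in aged MFP (exact two-sided permutation p = 0.333, the smallest possible). Each of the 12 had a higher ratio to mt-Nd6 in both aged than in both young libraries, 12 of 12, against 13% of all genes tested. The 12 ratios share mt-Nd6 as denominator and are not independent. The count was also 12 with the nuclear copies added. Leaving out a library cannot lower it, because the ages were already apart for every ratio. The ratio of mt-Nd2 to mt-Nd6 was 4.05 and 4.39 in aged, against 2.55 and 2.51 in young libraries, and that of mt-Nd1 was 4.88 and 5.57 in aged, against 3.43 and 3.70 in young libraries. For mt-Co2 the ratios were nearest to each other, at 0.0347 and 0.0400 in aged, against 0.0326 and 0.0331 in young libraries.

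**Figure D4:**
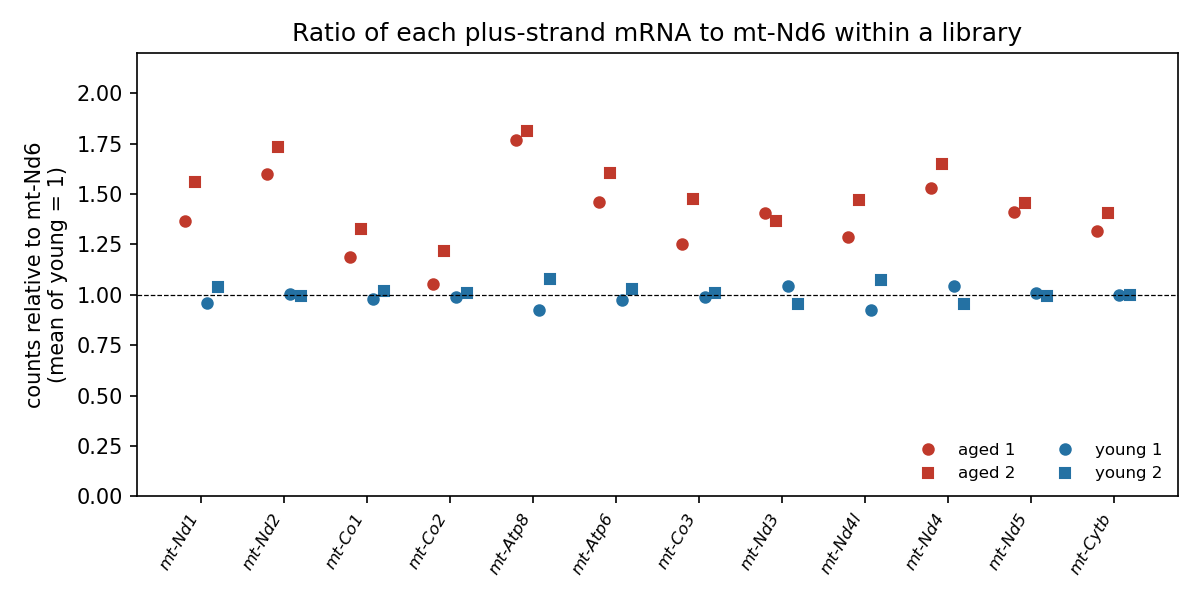
Counts of each plus-strand mitochondrial mRNA relative to mt-Nd6 in the same library, divided by the mean of the 2 young libraries (dashed line at 1). Points are libraries, aged in red and young in blue; both aged points lie above both young points for all 12 genes, with the mean fold from 1.14 for mt-Co2 to 1.79 for mt-Atp8.

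In the make-up of the mRNA pool, the shares of several members were apart between the ages, which was not tested. mt-Co1 was the most counted mRNA and held 35.2% and 36.1% of the counts of the 13 mRNAs in aged, against 38.3% and 39.3% in young libraries. mt-Nd6 held 2.32% and 2.13% in aged, against 3.07% and 3.02% in young libraries. Both were lower in each aged library, as was mt-Co2, while 54.8% of all genes tested were lower relative to the same sum. mt-Nd2 held 9.41% and 9.35% in aged, against 7.82% and 7.58% in young libraries, and mt-Nd1, mt-Nd4, mt-Nd5, mt-Atp6 and mt-Atp8 were also higher in both aged libraries, 6 of 13 against 5.17% of all genes tested. mt-Cytb, mt-Co3, mt-Nd3 and mt-Nd4l overlapped. These shares sum to a fixed total, so a higher share of some members requires a lower share of others. The sum itself was a larger share of all counts in both aged libraries, which lowers other genes relative to it. The percentages over all genes are therefore not a like comparison for the 13 mRNAs.

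The 2 rRNAs form the cores of the small (mt-Rnr1) and large (mt-Rnr2) subunits of the mitochondrial ribosome. The depletion kit used on these libraries is made to remove ribosomal RNA, mitochondrial rRNA included, so their levels are those left after depletion. mt-Rnr2 (chrM:1094-2675, plus strand) stood at 26194 and 26148 CPM in aged, against 26881 and 22264 CPM in young libraries (log2 fold change 0.09, SE 0.64, edgeR adjusted p = 0.959). mt-Rnr1 (chrM:70-1024, plus strand) stood at 1299 and 1025 CPM in aged, against 1502 and 1093 CPM in young libraries (log2 fold change -0.16, SE 0.29, edgeR adjusted p = 0.829). Both overlapped between the ages, and the sign of mt-Rnr2 turned with total counts as the only scaling (-0.09). The level per length of mt-Rnr2 was 16038 CPM per 1000 bases and that of mt-Rnr1 was 1288 CPM per 1000 bases, although both come from the same precursor. The ratio of mt-Rnr2 to mt-Rnr1 was 20.2 and 25.5 in aged, against 17.9 and 20.4 in young libraries, which overlap. The 13 mRNAs had 1.16 and 1.34 counts per count of rRNA in aged, against 0.952 and 0.886 in young libraries, a 1.36-fold higher mean in aged MFP (exact two-sided permutation p = 0.333). mt-Nd6 relative to mt-Rnr2 overlapped between the ages, at 0.0283 and 0.0297 in aged, against 0.0309 and 0.0280 in young libraries.

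The 22 tRNA genes are shorter than most fragments that a sequencing library of long RNA keeps, and reads of a tRNA cannot be told apart from reads of a precursor that still holds it. They were measured at 0 to 50.5 CPM per 1000 bases. mt-Tf and mt-Tk had 0 counts in every library, which allows up to 0.0337 to 0.0406 CPM. Of the 22, 11 passed the filter on low counts. The sequences of the tRNAs named below are shown 5′ to 3′ as encoded in the sense of each gene (GENCODE M21, GRCm38), with the anticodon in capitals, since the anticodon tells them apart by the codons that they read.
mt-Tw (tryptophan): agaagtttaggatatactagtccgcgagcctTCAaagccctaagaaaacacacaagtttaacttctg
mt-Ti (isoleucine): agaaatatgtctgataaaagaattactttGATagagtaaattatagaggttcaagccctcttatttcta
mt-Tq (glutamine): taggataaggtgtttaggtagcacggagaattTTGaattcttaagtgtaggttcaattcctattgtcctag
mt-Tl1 (leucine): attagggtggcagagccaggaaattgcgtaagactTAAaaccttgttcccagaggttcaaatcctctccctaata
mt-Ty (tyrosine): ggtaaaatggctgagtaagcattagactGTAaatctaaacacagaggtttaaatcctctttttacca
mt-Te (glutamate): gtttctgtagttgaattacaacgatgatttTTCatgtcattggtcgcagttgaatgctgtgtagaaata
mt-Ta (alanine): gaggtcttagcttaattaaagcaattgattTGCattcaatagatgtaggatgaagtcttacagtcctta

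The tRNAs did not share a direction. The median log2 fold change of the 11 tested was -0.02, from -1.18 to 0.60, with 5 above 0 and 6 below, and 0 passed edgeR's test (adjusted p from 0.469 to 0.982). The 6 tested on the plus strand had a median of 0.08 and the 5 on the minus strand a median of -0.35, a difference that was not tested. mt-Tw (chrM:4950-5016, plus strand), which follows mt-Nd2, was the tRNA with the most counts, at 3.94 and 4.22 CPM in aged, against 3.66 and 1.71 CPM in young libraries (log2 fold change 0.60, SE 0.45). It was the only tested tRNA with both aged libraries above both young, and its log2 fold change was 1.25 without young replicate 1 and 0.17 without young replicate 2. mt-Ty (chrM:5260-5326, minus strand) had both aged libraries below both young, with 10 and 14 counts in aged, against 30 and 20 counts in young libraries (log2 fold change -1.18, SE 0.42, edgeR unadjusted p = 0.0467, adjusted p = 0.469). Among all genes tested, both aged libraries were below both young for 22.8%, and 3.31% were lower in aged MFP at an unadjusted p under 0.05.

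mt-Ti (chrM:3706-3774, plus strand) and mt-Tq (chrM:3772-3842, minus strand) are neighbours on opposite strands that share 3 bases. mt-Ti stood at 2.15 and 2.08 CPM in aged, against 2.71 and 1.58 CPM in young libraries, and mt-Tq at 2.02 and 1.68 CPM in aged, against 3.17 and 1.54 CPM in young libraries. Both overlapped between the ages. mt-Tl1 (chrM:2676-2750, plus strand), which follows mt-Rnr2, stood at 1.44 and 1.50 CPM in aged, against 1.82 and 1.04 CPM in young libraries. mt-Te (chrM:14071-14139, minus strand) had 28 and 46 counts in aged, against 29 and 16 in young libraries (log2 fold change 0.59, SE 0.47). mt-Ta (chrM:5018-5086, minus strand) had 7 and 14 counts in aged, against 20 and 8 in young libraries (log2 fold change -0.53, SE 0.63). The SEs of the 11 tested tRNAs were 0.37 to 0.63 on the log2 scale, so a difference of 0.54, the median of the mRNAs, is under 2 SEs for each of them.

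**Figure D5:**
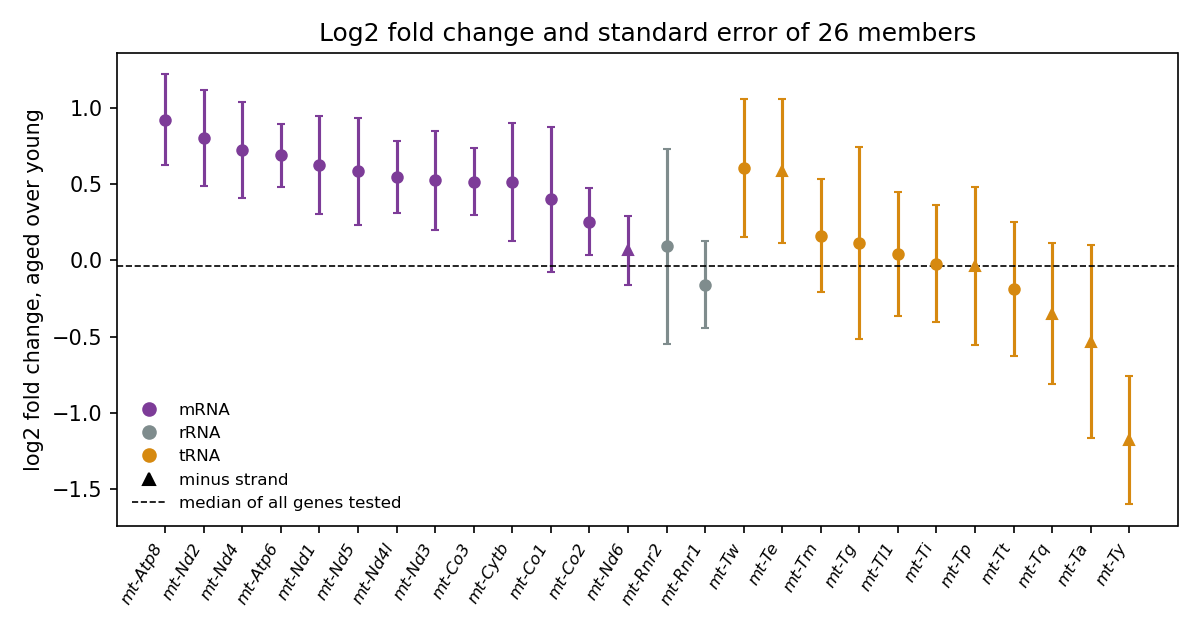
Log2 fold change, aged over young, with its standard error for the 26 members that passed the filter, grouped as mRNA (purple), rRNA (grey) and tRNA (orange). Triangles are minus-strand genes, and the dashed line is the median of all genes tested (-0.04). The mRNAs lie between 0.06 and 0.92, the rRNAs at 0.09 and -0.16, and the tRNAs between -1.18 and 0.60.

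Nuclear genes that maintain and express the mitochondrial genome were described from 8 lists with 184 genes tested. None passed edgeR's test (0 of 184, lowest adjusted p = 0.406), with 4 higher and 1 lower in aged MFP at an unadjusted p under 0.05, against 7.24% and 3.31% of all genes tested. DESeq2 called 2, both higher, against 3.17% of all genes that it tested. Their median log2 fold change was 0.01, with 94 above 0 and 90 below. For 36 of them both aged libraries were above both young and for 43 below, against 23.3% and 22.8% of all genes tested. The median was 0.06 for the 81 mitochondrial ribosomal proteins (54 above 0 and 27 below), among which Mrpl42 (0.62) and Mrpl51 (0.39) had the largest differences. It was -0.10 for the 21 genes of RNA processing and modification (4 above 0 and 17 below), with Trit1 and Pus1, tRNA-modifying enzymes, at -0.48 and -0.36. The 8 transcription genes had a median of -0.08, with the termination factor family member Mterf1a at -0.68 and the initiation factor Tfb2m at 0.47. The 12 replication genes had a median of -0.12, with the primase Primpol at -0.49 and the exonuclease Mgme1 at 0.45.

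The 14 genes of RNA stability and decay had a median of -0.06, with Grsf1, an RNA-binding protein of mitochondrial RNA granules, at 0.38 and the poly(A) polymerase Mtpap at -0.29. The 13 translation factors had a median of 0.06, with Mtrf1 at 0.35 and Taco1, an activator of mt-Co1 translation, at 0.32. The 22 synthetase genes had a median of -0.20. Lars2, which charges the mitochondrial leucine tRNAs, stood at 595 CPM in aged replicate 1 against 40.8 CPM in aged replicate 2 and 51.9 and 66.5 CPM in the young libraries (log2 fold change 2.42, SE 1.27). The high value came from the library that also stood apart for CT010467.1, and the part of rRNA reads in it was not tested. Gatb, a subunit of the enzyme that completes the charging of the mitochondrial glutamine tRNA, stood at 51.4 and 37.5 CPM in aged, against 27.4 and 34.4 CPM in young libraries (log2 fold change 0.52, SE 0.24), with both aged libraries above both young.

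The regulators of mitochondrial biogenesis, 13 genes, were centred at 0.04 on the log2 scale. Ppargc1a, a coactivator of genes of oxidative metabolism, stood at 17.5 and 16.9 CPM in aged, against 9.73 and 11.1 CPM in young libraries (log2 fold change 0.73, SE 0.18, edgeR adjusted p = 0.409, DESeq2 adjusted p = 0.0401). Esrrb, a nuclear receptor, stood at 31.8 and 45.1 CPM in aged, against 3.597 and 10.7 CPM in young libraries (log2 fold change 2.43, SE 0.61, edgeR adjusted p = 0.409, DESeq2 adjusted p = 0.00263). These were the 2 genes of the lists that DESeq2 called, and both aged libraries were above both young for each.

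Markers of several cell types were higher in the same libraries as the mRNAs. For skeletal muscle, 14 of 14 markers were higher in both aged libraries (23.3% of all genes tested), with a median log2 fold change of 2.05 and 0 passing edgeR's test. Ckm, the muscle creatine kinase, stood at 1978 and 4054 CPM in aged, against 584 and 986 CPM in young libraries. The aged libraries differed from each other in the kind of muscle RNA. The 6 markers of slow fibres summed to 47.0 CPM in aged replicate 1, against 2.45 CPM in aged replicate 2 and 3.76 and 3.13 CPM in young libraries. Myh2, a myosin of oxidative fast fibres, stood at 578 CPM in aged replicate 1, against 1.06 to 2.15 CPM in the other libraries. The order of the libraries within an age was also counted. All 13 mRNAs and 12 of the 14 muscle markers were higher in aged replicate 2 than in aged replicate 1. In young replicate 2, 0 of the 13 mRNAs and 12 of the 14 muscle markers were higher than in young replicate 1. The share of all genes with each order was not determined, and genes of the same set are not independent. Adipocyte markers were higher in both aged libraries for 9 of 10 genes (23.3% of all genes tested). They summed to 11257 and 8823 CPM in aged, against 7439 and 7296 CPM in young libraries. Brown adipocyte markers summed to 156 and 178 CPM in aged, against 120 and 128 CPM in young libraries, and of the 7 genes 4 were higher and 2 lower in both aged libraries, with 1 overlapping. Ucp1, the uncoupling protein that defines these cells, is 1 of the 2 that were lower and stood at 13.1 and 10.1 CPM in aged, against 21.8 and 18.1 CPM in young libraries. Erythroid markers, of cells that lose their mitochondria, were higher in both aged libraries for 5 of 5 genes (23.3% of all genes tested). RNAs retained in the nucleus were lower in both aged libraries for 3 of 4 genes (22.8% of all genes tested), while Neat1 overlapped. The 4 genes summed to 17929 and 17206 CPM in aged, against 19568 and 24246 CPM in young libraries. The part of these cell types, or of RNA recovery, in the level of the mitochondrial mRNAs was not tested.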

How the data were processed

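RNA of 2 aged and 2 young MFP samples was sequenced as strand-specific total RNA depleted of ribosomal RNA. The table that the authors deposited holds raw whole-number counts for each gene, 1 column per sample, with no normalization and no pooling. The submitters' processing notes name featureCounts, R 3.6.1 and GRCm38; the aligner, annotation release, strand setting and handling of multi-mapping reads are not given in the sources used here. The notes also list a human build, hg38, which does not apply to mouse tissue. Groups and replicate numbers came from the sample titles.

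Genes were kept by filterByExpr, scaled by TMM and tested over all genes with glmQLFit and glmQLFTest of edgeR 4.0.16 (R 4.3.3, limma 3.58.1), with age as the only term and a Benjamini-Hochberg adjusted p of 0.05. As SE of a log2 fold change served its absolute value over the root of F. edgeR draws the spread of a gene partly from other genes. Such an SE is therefore not the spread of that gene alone over the 4 libraries. For mt-Rnr2 the SE was 0.64, with 26194 and 26148 CPM in aged, against 26881 and 22264 CPM in young libraries. DESeq2 1.42.0 was an alternative. CPM use TMM-scaled libraries. Shares and ratios were tested by exact permutation over samples.

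Gene positions, lengths, overlaps and sequences come from GENCODE M21, which holds 55141 of the 55487 identifiers. Copies were found as exact matches of 50 bases in annotated nuclear genes and aligned with Biopython 1.88.

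The members and gene lists were chosen with earlier results of these data known. Named were all mRNAs and rRNAs, the 4 tRNAs with the highest mean CPM and the 4 with the largest absolute log2 fold change (mt-Tw is in both), the 2 genes of each nuclear list with the largest absolute log2 fold change, and the 3 copies with most counts. Gm29216, Gm13340, Ckm, Myh2, Ucp1, Col1a1 and Col1a2 were picked once their values were known. A list of 5 cytoplasmic rRNA names found 0 rows, so rows annotated as rRNA were used instead, chosen after seeing the data. The remaining marker lists summed to these ranges over the 4 libraries: keratinocyte 1.33 to 2.26 CPM, mammary epithelium 1217 to 2929, macrophage 176 to 498, endothelium 510 to 757 and fibroblast 1132 to 2533 CPM. Of the 5 fibroblast genes, 3 were higher in both aged libraries (median log2 fold change 0.63), while Col1a1 and Col1a2, which make up most of the sum, were lower.

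On simulated counts for 22485 genes with 200 changed by a log2 fold of 2, edgeR recovered 29% of the changed genes, and 3.33% of the calls it made were false. This was a single draw in which genes varied independently of each other. The mRNAs had log2 fold changes from 0.06 to 0.92, and the recovery of differences of that size was not determined.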

Additional observations from a re-analysis of the deposited data

How the results depend on the processing

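In 15 settings run on all genes tested, 0 members passed the threshold, and 14 of 329 recomputed values of single members changed sign. The causes were not tested. The median of the 13 mRNAs was 0.36 to 0.58 with all 4 samples and 0.39 to 0.78 with 1 sample left out. Fits with 1 sample left out assume that the lone sample of an age varies like the other age. With all 4 samples, 11 or 12 mRNAs were higher in both aged libraries than in both young ones. With total counts as the only scaling the median of all genes tested was -0.22, that of the mRNAs 0.36 and that of the nuclear lists -0.17, and mt-Rnr2 (-0.087), mt-Nd6 (-0.12) and mt-Tl1 (-0.14) changed sign. DESeq2 called 865 genes, 2 of them in the nuclear lists, and 2371 genes had an unadjusted p under 0.05. That number was 837 without aged replicate 2, 884 without aged replicate 1, 2831 without young replicate 1 and 6688 without young replicate 2. Without mt-Co1 the log2 ratio of the share of mt-Nd6 was -0.52 instead of -0.45.

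With 1 sample left out, the median was -0.35 (without young replicate 2) to 0.48 (without young replicate 1) for the tRNAs and -0.11 to 0.079 for the nuclear lists. The log2 fold change was -0.36 to 0.088 for mt-Rnr1, -0.027 to 0.23 for mt-Rnr2, -0.12 to 0.28 for mt-Nd6, -0.35 to 0.41 for mt-Ti, -0.77 to 0.26 for mt-Tq, -0.29 to 0.50 for mt-Tl1 and -1.03 to 0.17 for mt-Ta. Values that kept their sign but moved by over 1.5 times were those of mt-Co1 (0.25 to 0.58), mt-Co2 (0.08 to 0.46), mt-Nd3 (0.29 to 0.82), mt-Cytb (0.33 to 0.73), mt-Tw (0.17 to 1.25) and mt-Te (0.26 to 0.98), each lowest without young replicate 2 except mt-Te, lowest without aged replicate 2, and each highest without young replicate 1. The difference in share was -0.073 to 1.05 percentage points for the 37 genes, 0.354 to 0.987 for the mRNAs, -0.427 to 0.064 for the rRNAs and -0.00047 to 0.000321 for the tRNAs.

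Deviations of same-numbered samples had a correlation of -0.48 over 22485 genes, so the replicate numbers gave no sign of pairing. With 2 samples per age the deviations mirror each other. The crossed pairs, aged replicate 1 with young replicate 2 and the reverse, thus have the same value with the opposite sign. In the numbering of the sample titles, the first 2 samples form 1 crossed pair and the last 2 the other. What this numbering stands for is not given in the sources used here, and the source of the correlation was not tested. With the replicate number as a block, mt-Ti was at 0.028 and 1346 genes had an unadjusted p under 0.05. Under the crossed pairing, added after seeing the data, mt-Ti was at 0.026, 0 genes were called and 2493 fell under the unadjusted threshold.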
